A study of Mus musculus with 24 samples.

Results

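The mucin genes described here are Muc1, Muc2, Muc4, Muc5b, Muc6, Muc13 and Muc20, chosen by gene name. They are 7 of the 45513 genes counted in mouse intestinal secretory cells. RNA-seq was run on 24 libraries in 4 groups of 6. The mouse lines Atoh1(WT)CreERT2 R26RtdTom (WT) and Atoh1(9S/T-A)CreERT2 R26RtdTom (9S/T-A), both gave small intestine (SI) and colon libraries, from 3 female and 3 male numbers per group. In both lines the Atoh1 gene was replaced by a knocked-in copy followed by CreERT2, so the controls carry an engineered allele too, and Cre activity was limited to cells that express Atoh1. In the 9S/T-A line the serine and threonine residues of ATOH1 that precede a proline were changed to alanine. All mice were homozygous for the Atoh1 allele, heterozygous for the tdTom reporter, 8 to 16 weeks old and of C57BL/6 background. They received a single 3 mg dose of tamoxifen intraperitoneally, and live EpCAM+ tdTom+ epithelial cells were sorted a day later. By the paper's methods only the proximal SI was taken, and a villus-enriched fraction was discarded to keep crypt-enriched ones. The comparison of the lines asks what blocking ATOH1 phosphorylation does to the transcripts of these cells, here the mucins.

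Mucins are large glycoproteins whose repeat regions carry dense O-linked sugar chains. Gel-forming mucins are secreted and make mucus: MUC2 is the backbone of intestinal mucus and the main product of goblet cells, MUC6 is made by gastric glands and by Brunner's glands of the duodenum, and MUC5B is best known from airways and salivary glands. Membrane mucins, among them MUC1, MUC4, MUC13 and MUC20, sit on the apical cell surface and form part of the glycocalyx, and some of them signal through their cytoplasmic or EGF-like domains. ATOH1 is the basic helix-loop-helix factor required for the secretory lineages of the gut, and factors of that class bind E-boxes, short sites with the letters CANNTG.

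In the GRCm38 coordinates of the files, the secreted mucins lie in a cluster on chromosome 7. Muc6 occupies chr7:141633456-141655319 on the minus strand, Muc2 chr7:141690340-141754693 on the plus strand and Muc5b chr7:141839070-141873084 on the plus strand, with Muc5ac between the last pair. Muc6 and Muc2 are separated by 35.0 kb. The membrane mucins named here, Muc1 apart, share chromosome 16. Muc4, at chr16:32735886-32782391 on the plus strand, and Muc20, at chr16:32777419-32797435 on the minus strand, overlap over 4973 bases, of which 627 are exonic in both. Reads were counted by strand, which separates that pair. Muc13 lies at chr16:33794037-33819934, plus strand, 997 kb beyond Muc20, and Muc1 at chr3:89229057-89233381, plus strand.

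The sequence before the transcription start is shown for 3 members. Muc2 is the most abundant, Muc4 the one called between the lines by the main test described below, in SI only, and Muc1 the one that differed most between the tissues. Each run is the 250 bases before the RefSeq start (RefSeq, GRCm38.p6), 5′ to 3′ in the direction of the gene, all on the plus strand, and capitals mark every CANNTG match. A table of RefSeq promoters held 6 of the 7 members, with none for Muc5b.
Muc2, chr7:141690090-141690339: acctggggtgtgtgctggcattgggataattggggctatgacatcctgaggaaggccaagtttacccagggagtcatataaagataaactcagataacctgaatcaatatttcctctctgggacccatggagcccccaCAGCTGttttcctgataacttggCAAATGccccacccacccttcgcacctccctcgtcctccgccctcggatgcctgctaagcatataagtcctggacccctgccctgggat
Muc4, chr16:32735636-32735885: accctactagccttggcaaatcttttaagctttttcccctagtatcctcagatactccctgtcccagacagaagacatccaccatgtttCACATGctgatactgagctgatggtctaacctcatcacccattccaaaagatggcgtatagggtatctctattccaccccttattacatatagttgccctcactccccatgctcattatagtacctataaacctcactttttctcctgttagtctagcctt
Muc1, chr3:89228806-89229055: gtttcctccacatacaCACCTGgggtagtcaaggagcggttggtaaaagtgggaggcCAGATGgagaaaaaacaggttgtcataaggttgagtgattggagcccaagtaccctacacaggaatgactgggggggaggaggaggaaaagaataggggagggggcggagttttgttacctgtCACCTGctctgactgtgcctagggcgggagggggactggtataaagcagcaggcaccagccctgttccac
The Muc2 window held 2 matches, CAGCTG at position -112 from the start and CAAATG at position -89. The Muc4 window held 1, CACATG at -161. The Muc1 window held 3, CACCTG at -234 and again at -70 and CAGATG at -193. These counts are a description only. CANNTG as a class reads the same on both strands and occurs in 66.2% of 32851 RefSeq promoter windows of the same 250 bases, CAGCTG in 13.0% and CAGATG, searched on both strands, in 14.4%.

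Library totals ran from 35967875 to 65796932 counts, and no pair of libraries held identical values. Levels are given as CPM, counts scaled to library size with TMM factors over all 24 libraries, and, where genes are compared with each other, per kilobase of annotated exon (RPKM). The sorted cells expressed all 9 goblet cell genes on a marker list (summed level 288716 to 472055 CPM in SI, 26439 to 67438 CPM in colon). Paneth cell markers summed to 41661 to 84432 CPM in SI and to 486 to 1916 CPM in colon, which lacks Paneth cells. In colon the highest of them on average were Ang4 (95.3 to 1346 CPM) and Nupr1 (234 to 517 CPM), and Lyz1 stood at 18.6 to 60.9 CPM. Nupr1 alone of the list was called higher in colon than in SI (log2 1.77 in WT and 1.61 in 9S/T-A). Its level here therefore goes against its place among Paneth cell markers. The targeted gene Atoh1 stood in SI at 92.3 ± 15.5 CPM in WT and at 75.0 ± 11.0 CPM in 9S/T-A (SD, n = 6). In colon it stood at 103 ± 15.7 and 85.9 ± 13.6 CPM. Neither difference was called by edgeR (adjusted p = 0.230 and 0.558), and this count does not check the label, since both lines transcribe an Atoh1 allele.

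Per length the members spanned a very wide range. In WT SI the order was Muc2 (3878 ± 597 RPKM, SD, n = 6), Muc13 (1159 ± 130.0), Muc4 (6.45 ± 1.35), Muc1 (0.120 ± 0.0561), Muc6 (0.0264 ± 0.0190), Muc20 (0.0159 ± 0.0123) and Muc5b, and the mutant SI had the same order. In both SI groups the libraries of Muc1 and Muc6, and of Muc6 and Muc20, overlapped, so those neighbours in the order were not separated. In WT colon the order was Muc2 (1708 ± 261 RPKM), Muc13 (553 ± 56.3), Muc4 (16.1 ± 2.25), Muc1 (10.4 ± 2.34), Muc20 (0.253 ± 0.0882), Muc6 (0.0371 ± 0.0272) and Muc5b, again the same in the mutant. Muc4 and Muc1 overlapped in the colon of both lines, where Muc1 had moved up to the level of Muc4. The step from Muc13 to Muc4 was 180.0-fold in WT SI and 34.2-fold in WT colon. The per-length level of Muc2 rests on an annotated exon length of 7127 bases in a span of 64354, and its longest annotated transcript has only 2926 bases.

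**Figure D1:**
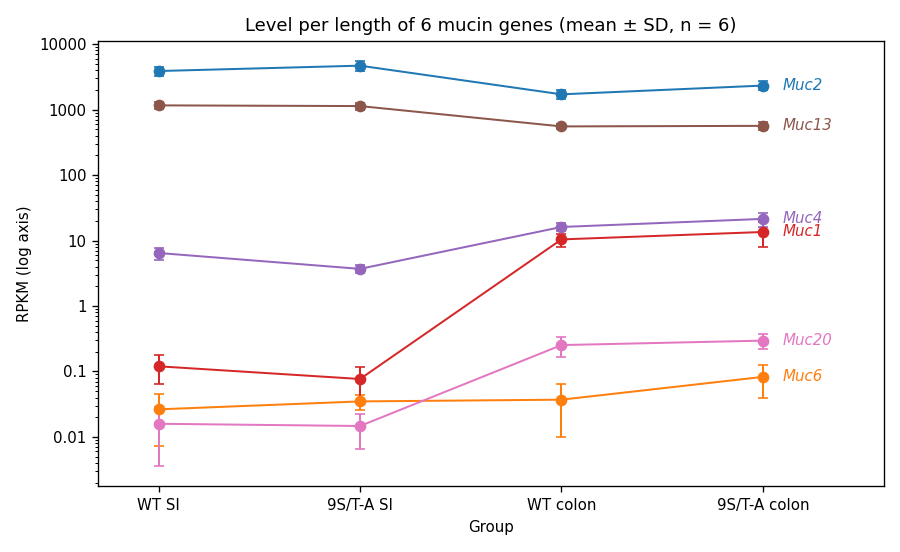
Mean level per length (RPKM, log axis) of 6 mucin genes in the 4 groups, with bars for the SD of 6 libraries (Muc5b, at 0 to 6 counts per library, is not drawn). Muc2 and Muc13 stay on top in all groups, and Muc1 reaches the range of Muc4 only in colon.

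In SI, Muc2 alone made up 2.22 ± 0.218% of all counts in WT and 2.48 ± 0.374% in 9S/T-A (SD, n = 6). In colon it made up 1.57 ± 0.215% in WT, and 1.69 to 2.41% in the 6 libraries of 9S/T-A. It held 83.5 to 91.2% of the counts of the 7 genes in every library. By count it ranked 4 to 7 among all genes in the SI libraries and 1 to 4 in the colon libraries. The other 6 mucins together took 0.291 ± 0.0378% of counts in WT SI and 0.245 ± 0.0157% in WT colon.

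**Figure D2:**
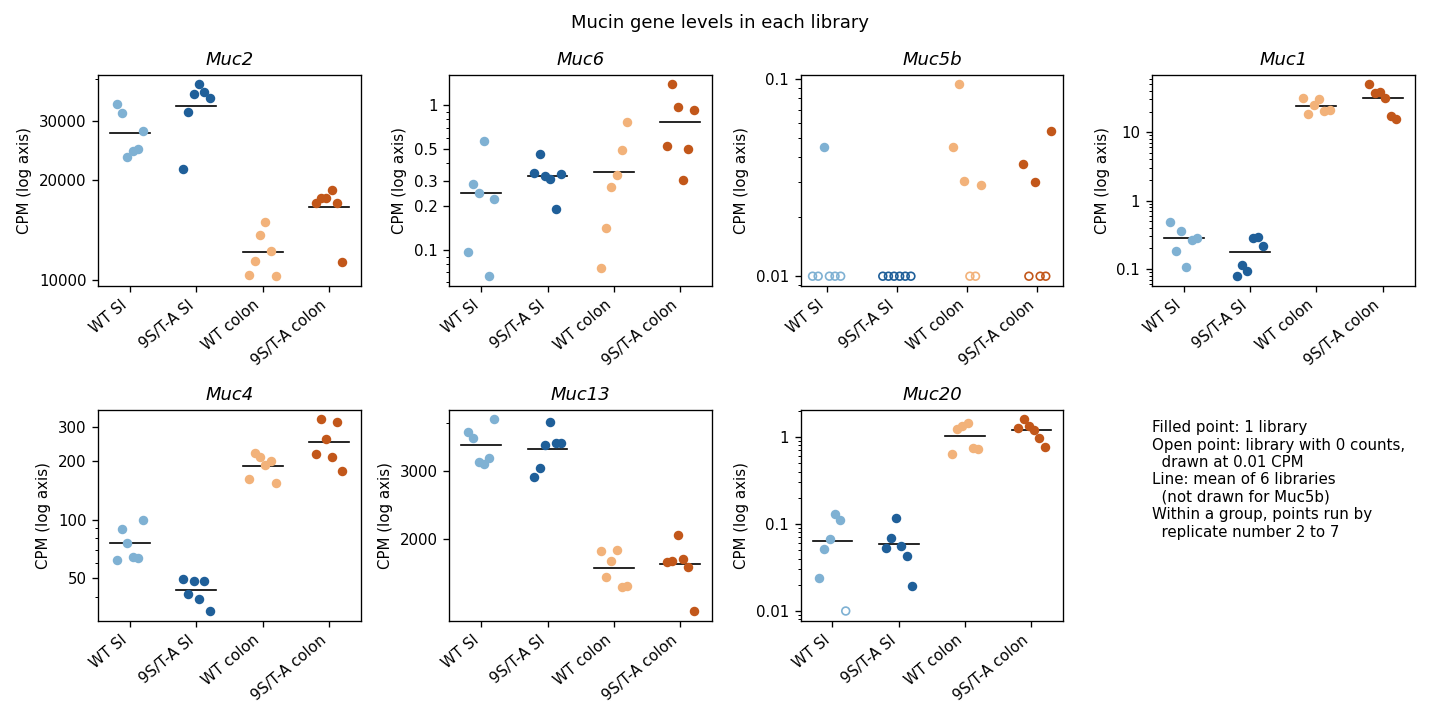
CPM of each mucin gene in every library (log axis), by group. Filled points are libraries, lines are means of 6 (none drawn for Muc5b), and open points drawn at 0.01 are libraries without a count. Muc4 separates the lines in SI without overlap, and Muc1, Muc20 and Muc4 are higher in all colon than in all SI libraries.

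Genotype was compared within each tissue with edgeR's quasi-likelihood test over all genes that passed a filter on low counts, with Benjamini-Hochberg adjustment and a threshold of 0.05. In SI, 5 of the 7 mucins could be tested (Muc5b and Muc20 were too low) and 1 was called, the membrane mucin Muc4, which fell. Over all genes, 1.94% were called in that comparison. In colon, 6 were tested and edgeR called 0, where 0.318% of all genes were called. At an unadjusted p under 0.05 that count is 3 (Muc2, Muc4 and Muc6), where 1497 of 16997 genes passed. DESeq2 called 1 mucin (Muc2), where it called 254 of 16988 genes. The median log2 fold change, 9S/T-A over WT, was -0.04 over the members tested in SI and 0.40 over those in colon, beside 0.00 over all genes in each tissue.

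Muc4, a large membrane mucin whose EGF-like domains can bind the receptor ERBB2, ranged in WT SI from 62.1 to 100.0 CPM with a median of 69.9. In the SI of the mutant it ranged from 33.8 to 49.7 CPM with a median of 44.8. All 6 mutant libraries lay below all 6 control libraries. The log2 fold change was -0.81 (SE 0.133, 95% interval -1.09 to -0.52), a 1.75-fold lower level, with an edgeR adjusted p of 0.00497. Leaving out any 1 library kept the call, with adjusted p between 0.00471 and 0.0165.

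In colon, Muc4 lay the other way. It ranged from 155 to 221 CPM (median 195) in WT and from 178 to 329 CPM (median 239) in 9S/T-A. The groups overlapped, with 3 mutant libraries above every control and none below. The log2 fold change of 0.43 (SE 0.144, interval 0.12 to 0.74) was not called (edgeR adjusted p = 0.351). The difference between the tissues was tested in 1 fit to all 24 libraries as the product of genotype and tissue. Of 6 mucins tested, Muc4 alone was called, with 1.21 on the log2 scale (SE 0.210, interval 0.78 to 1.64, edgeR adjusted p = 0.00653), where 0.412% of all genes were called. The log2 ratio of colon to SI between libraries of the same number was 0.63 to 1.65 in WT and 2.13 to 2.99 in 9S/T-A. Those ranges did not overlap.

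Members of other gene lists were also called in the same SI comparison, in which 1.94% of all genes were. Of 8 Paneth cell genes 4 fell, the matrilysin gene Mmp7 (log2 -1.25), the antimicrobial ribonuclease gene Ang4 (-1.11), the lectin gene Itln1 (-0.98) and Pla2g2a (-0.60). Their list summed to 52517 to 84432 CPM in WT SI and 41661 to 64798 CPM in 9S/T-A SI. Of 5 tuft cell genes 2 fell, the lineage factor genes Pou2f3 (-1.18) and Gfi1b (-1.76), and that list summed to 49.4 to 102 CPM in WT and 18.8 to 82.8 CPM in 9S/T-A. Of 6 enteroendocrine genes 1 fell, Gcg, which encodes proglucagon (-2.65), while Tph1, for serotonin synthesis, stood at 0.42 and was not called. No marker of those 3 lists was at 0 in every library of either SI group. In sorted bulk cells, fewer cells of a type and less RNA per cell cannot be told apart, and the part of these cell types in the Muc4 difference was not tested. In colon, 0.318% of all genes were called. There 1 of 9 goblet genes, Spink4 (0.68), and 1 of 5 tested leukocyte genes, Cd74 (4.56), rose (edgeR adjusted p = 0.0287 and 0.0281). The leukocyte list summed to 9.52 to 17.6 CPM in WT colon and 15.6 to 472 CPM in 9S/T-A colon. Cd74 alone reached 463 CPM there, and the other 4 tested leukocyte genes were not called (Lyz2 0.59, Cd68 -0.17, Itgam -0.21, Ptprc -0.40).

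**Figure D3:**
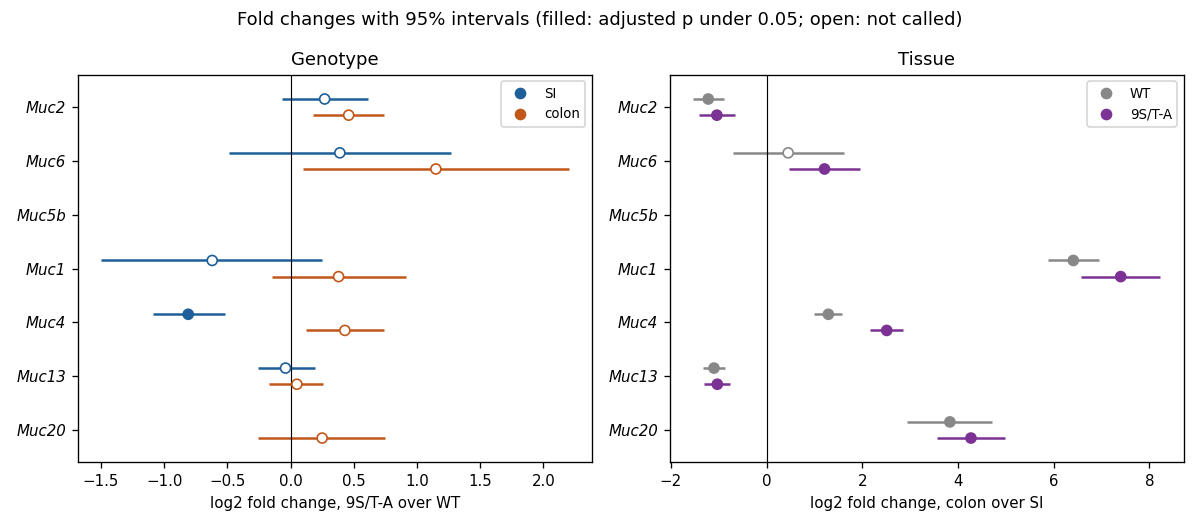
Log2 fold changes with 95% intervals from edgeR for genotype (left, 9S/T-A over WT in each tissue) and tissue (right, colon over SI in each line). Filled points passed an adjusted p of 0.05. On the left only Muc4 in SI is filled, and on the right all are filled but Muc6 in WT.

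Muc2, the gel-forming mucin of goblet cells, ranged in SI from 23344 to 33739 CPM (median 26314) in WT and from 21631 to 38651 CPM (median 35605) in 9S/T-A. There 4 mutant libraries lay above all controls and 1, replicate 2, below them all. Its log2 fold change of 0.27 (SE 0.157, interval -0.07 to 0.61) was not called (edgeR adjusted p = 0.434). In colon it ranged from 10292 to 14986 CPM (median 11842) in WT and from 11357 to 18590 CPM (median 17358) in 9S/T-A. All mutant libraries but replicate 7 lay above every control. The log2 fold change was 0.46 (SE 0.130, interval 0.18 to 0.74) with an edgeR adjusted p of 0.223. Without 9S/T-A colon replicate 7 it was 0.54 and was called (edgeR adjusted p = 0.0370). The lowest control, at 10292 CPM, was replicate 7 of WT colon, and these libraries deviated together over all genes (r = 0.85). Without that control instead, Muc2 was not called. The effects in SI and colon differed by 0.17 (interval -0.28 to 0.62).

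The tissue comparison asks how the mucins differ between sorted cells of the proximal SI and of the colon. In WT, 5 of 6 mucins tested were called, 3 higher and 2 lower in colon, where 63.6% of all genes were called. In 9S/T-A it was 6 of 6, 4 higher and 2 lower, where 60.9% were called. The members' counts are read against those shares, so the sizes matter here.

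Muc2 was lower in colon, with no overlap in CPM in either line. The log2 fold change was -1.22 (SE 0.151, edgeR adjusted p = 4.06e-06) in WT and -1.04 (SE 0.179, adjusted p = 0.000130) in 9S/T-A. Muc13, a membrane mucin of the gut surface, followed it. In WT it ranged from 3142 to 4102 CPM (median 3456) in SI and from 1499 to 1873 CPM (median 1671) in colon. In 9S/T-A the ranges were 2897 to 4035 CPM (median 3535) and 1296 to 2049 CPM (median 1741). The fold changes were -1.10 (SE 0.109, edgeR adjusted p = 3.38e-07) and -1.03 (SE 0.127, adjusted p = 4.81e-06). The intervals of the genotype difference of Muc13 were narrow, -0.26 to 0.19 in SI and -0.17 to 0.26 in colon on the log2 scale. The sizes in the tissue comparison depend on the scaling. With plain library totals in place of TMM the median of all genes moved to 0.74 in WT and 0.85 in 9S/T-A. The Muc2 values became -0.50 and -0.24, the latter not called, and the Muc13 values -0.39 and -0.23, both called. As a percentage of counts, Muc2 in 9S/T-A overlapped between SI (1.75 to 2.80%) and colon (1.69 to 2.41%). So did Muc13 in 9S/T-A (0.234 to 0.283% and 0.193 to 0.245%), while in WT neither gene overlapped.

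Muc1, a membrane mucin with a signalling cytoplasmic tail, differed most. In SI it was near the limit of counting, with 5 to 20 counts per library in WT (0.108 to 0.481 CPM, median 0.275) and 3 to 14 in 9S/T-A (0.0787 to 0.297 CPM, median 0.166). In colon it had 1149 to 4057 counts, 18.7 to 31.4 CPM (median 23.0) in WT and 15.7 to 49.8 CPM (median 34.5) in 9S/T-A. The colon level was 84.9-fold higher in WT, log2 6.41 (SE 0.249, edgeR adjusted p = 6.16e-12). In 9S/T-A it was 169-fold higher, log2 7.40 (SE 0.391, adjusted p = 3.44e-10). The genotype values of Muc1, -0.62 in SI (interval -1.50 to 0.25) and 0.38 in colon (interval -0.15 to 0.91), were not called, and their intervals are wide.

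Muc20, a small cell-surface mucin, had the same direction at a far lower level. It had 0 to 6 counts per library in SI, where a level of 3 counts corresponds to 0.0589 to 0.0958 CPM. In colon it ranged from 0.630 to 1.43 CPM (median 0.996) in WT and from 0.766 to 1.60 CPM (median 1.24) in 9S/T-A, and no SI library reached the lowest of them. The log2 fold change was 3.83 (SE 0.416, edgeR adjusted p = 9.93e-07) in WT and 4.27 (SE 0.330, adjusted p = 2.67e-08) in 9S/T-A. In colon its counts came to 0.304 to 0.752% of those of Muc4 on the opposite strand, and in SI to at most 0.240%. Genotype gave 0.25 (interval -0.26 to 0.75) in colon. Muc4 was higher in colon too, by 1.29 (SE 0.133, edgeR adjusted p = 5.74e-07) in WT and by 2.51 (SE 0.159, adjusted p = 2.97e-09) in 9S/T-A, with no overlap in either line.

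Muc6 had 3 to 86 counts per library. It ranged from 0.0658 to 0.564 CPM (median 0.236) in WT SI, from 0.191 to 0.463 CPM (median 0.329) in 9S/T-A SI, from 0.0750 to 0.771 CPM (median 0.303) in WT colon and from 0.305 to 1.40 CPM (median 0.729) in 9S/T-A colon. All groups overlapped. The single call was the tissue difference in 9S/T-A, 1.21 (SE 0.353, edgeR adjusted p = 0.00783), against 0.45 (interval -0.70 to 1.61) in WT, and the difference between the lines, 0.75 (interval -0.64 to 2.15), was not called. The genotype value in colon, 1.15, had an interval of 0.10 to 2.20 and an edgeR adjusted p of 0.521. Genes of stomach and Brunner's glands were at 9.20 to 21.8 CPM in sum in SI and 0.597 to 1.56 CPM in colon. They were led in SI by the gastrokine gene Gkn3 (8.46 ± 2.49 CPM in WT, SD, n = 6) and the pepsinogen gene Pgc (5.08 ± 1.49 CPM in WT). The rest of that list averaged under 1 CPM in WT SI, with Atp4a (0.607 CPM) and Tff2 (0.452 CPM) the highest. In WT colon Gkn3 stood at 0.0102 and Pgc at 0.0255 CPM on average, and Muc6 at 0.348 CPM. Muc5b was barely detected. It had 2 counts in 1 WT SI library and 0 in the other 5, 0 in all 6 of 9S/T-A SI, 0 to 6 in WT colon and 0 to 4 in 9S/T-A colon, and it was not tested.

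The other mucins of the annotation that were looked up gave few differences. Of 11 that matched a gene, 4 were tested in each genotype comparison and edgeR called 0 in either tissue. In SI 1 had an unadjusted p under 0.05, where 2556 of 16236 genes did, and DESeq2 called 0. In colon both counts were 0. The 4 tested were the membrane mucins Muc3 and Muc3a, the sialomucin gene Cd164 and the oviductin gene Ovgp1. Muc3 stood at 202 ± 38.9 CPM in WT SI and 226 ± 68.4 CPM in WT colon (SD, n = 6). Muc3a stood at 477 ± 122 and 70.1 ± 16.7 CPM, and was lower in colon by a log2 fold change of -2.80 in WT and -2.88 in 9S/T-A (edgeR adjusted p = 2.84e-09 and 1.80e-07). Whether reads of Muc3 and Muc3a were split between them was not tested. Cd164 was lower in colon as well with TMM scaling, by -0.41 and -0.60, but this direction depends on the scaling. As a mean percentage of counts it was higher in colon, at 0.0559 against 0.0450 in WT and 0.0537 against 0.0470 in 9S/T-A. Muc5ac, Muc15, Muc19, Mucl1, Mucl2, Mucl3 and Emcn had 0 to 15 counts in every library, while Muc16 and Muc21 were not matched.

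Genes that build and pack mucins were followed in 2 lists. Of 11 genes for mucus partners and goblet cell secretion, edgeR called 0 by genotype in SI (3 at an unadjusted p under 0.05, 2 by DESeq2) and 0 in colon (1 and 0). Over all genes, 2556 of 16236 in SI and 1497 of 16997 in colon had an unadjusted p under 0.05. DESeq2 called 779 of 16229 genes in SI and 254 of 16988 in colon. Of 13 genes for the sugar chains of mucins, edgeR called 1 in SI, where 1.94% of all genes were called. It was A4gnt, which caps O-glycans of gastric-type mucins such as MUC6 with N-acetylglucosamine. A4gnt ranged from 10.2 to 18.1 CPM (median 12.3) in WT SI and from 5.23 to 9.54 CPM (median 6.16) in 9S/T-A SI, without overlap. It fell by 1.03 on the log2 scale in the mutant (SE 0.179, edgeR adjusted p = 0.00720). In colon it ranged from 61.6 to 89.6 CPM (median 76.7) in WT and from 88.8 to 153 CPM (median 104) in the mutant. That difference, 0.55 on the log2 scale, was not called (edgeR adjusted p = 0.107). For A4gnt the effects of genotype in the tissues differed by 1.56 (SE 0.232, edgeR adjusted p = 0.00116), the 1 call of 13 in its list, in the same direction as Muc4. Of the same 13 genes, 6 were higher and 5 lower in colon in WT, where 63.6% of all genes were called, and 5 and 5 in 9S/T-A, where 60.9% were. The direction of the smaller of these differences depends on the scaling. As a mean percentage of counts, 3 of the 5 were higher in WT colon than in WT SI. They were Galnt3 (0.0136 against 0.0111), Galnt4 (0.0310 against 0.0263) and Galnt12 (0.0350 against 0.0269). Gcnt3 was level (0.0472 against 0.0471), and Gcnt4 was lower (0.000214 against 0.00118).

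**Figure D4:**
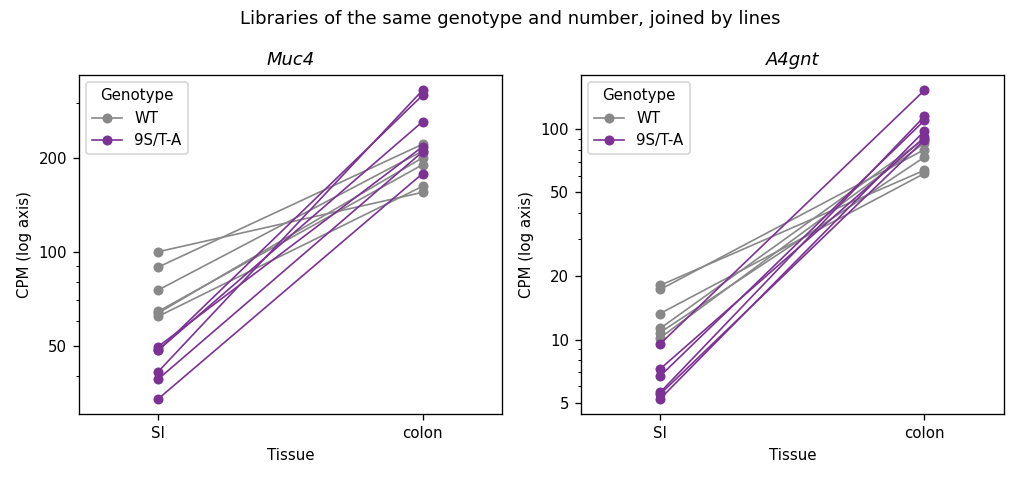
CPM (log axis) of Muc4 and A4gnt in SI and colon, with lines joining libraries of the same genotype and number. In SI every 9S/T-A library lies below every WT library for both genes, and in colon the highest libraries are 9S/T-A.

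The genes whose levels ran most like a mucin's were sought among 12815 genes with at least 1 CPM on average in both tissues, by the lower of the Pearson r of log2(CPM + 1) over 12 SI and over 12 colon libraries. For Muc2 they were Dusp6 (r = 0.93 in SI and 0.89 in colon), Tacc2 (0.84 and 0.84) and Fam83g (0.92 and 0.82). For Muc4 it was BC030867 (r = 0.82 and 0.81) and for Muc13 Atp10b (0.90 and 0.89). Without the 2 libraries farthest from the median, r stayed between 0.72 and 0.89 for all of these. The libraries of each tissue include both genotypes and share their scaling, the genes were picked as the highest of many, and the values are given as a description without a test.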

How the data were processed

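RNA of sorted cells was made into stranded mRNA libraries and sequenced as single reads. The authors aligned reads with TopHat2 2.1.1 and counted them per Ensembl gene on the annotated strand with featureCounts (Subread 1.5.2) on GRCm38. The deposited values are raw counts per gene, without normalization. Gene IDs were named from GENCODE M21 (44671 of 45513 matched). The members and all gene lists were chosen with earlier results of these data known. From the counts, edgeR 4.0.16 in R 4.3.3 (filterByExpr, TMM, quasi-likelihood F test, two-sided) was fitted to the 2 groups compared, and a single fit to the 24 libraries tested genotype times tissue. SE is the log2 fold change over the root of F. DESeq2 1.42.0 was an alternative. The test was checked on simulated data. All 7 members and Atoh1 were named whatever their result, other genes by list and call (glycosylation and partner lists, at most 4) or by level (gastric list, a mean of at least 1 CPM in any group), and list members called in a genotype comparison were added after their values were seen. Libraries share numbers 2 to 7 over the groups. Between tissues all 6 same-numbered pairs deviated together in each line (r 0.17 to 0.57 in WT, 0.16 to 0.65 in 9S/T-A), and the series' design text has both tissues taken from each of 6 mice, fewer than the 12 pairs of line and number. Nothing states that the number names the mouse, so p-values measure the spread between these libraries. Other analyses left out single libraries, changed scaling or filter, or added sex or the number. Totals of 35967875 to 65796932 counts bound the precision for low genes (Muc5b, Muc20, Muc1 and Muc6), by counting error only.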

Additional observations from a re-analysis of the deposited data

Results flagged for a closer look

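Muc2 in 9S/T-A colon replicate 7 stood at 11357 CPM, far below the other 5 libraries of its group, of which the nearest had 17053 and the highest 18590 CPM. Muc5b in WT SI replicate 4 stood at 0.0452 CPM, from 2 counts, while the other 5 libraries of the group had 0. The 28 groups of 6 libraries were examined for such a gap, except Muc5b in 9S/T-A SI, where all values were 0. Chance gives such a gap in about 1 in 20 groups if values spread normally. That rate does not apply to groups of very few counts, such as Muc5b in WT SI. The effect of genotype on Muc4 differed between the tissues by 1.21 on the log2 scale, by the test of the product of genotype and tissue.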

How the results depend on the processing

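In SI, Muc4 was the 1 mucin called under all 21 alternatives, and the product of genotype and tissue called it under all 30. In colon the genotype comparison called 0 mucins, but 1 under DESeq2 (Muc2, adjusted p = 0.0148) and 2 with the replicate block (Muc2, 0.0282, and Muc4, 0.0245), where 2.27% of all genes were called (385 against 54), and the cause was not tested. Same-numbered libraries of the lines deviated together in 4 of 6 pairs in SI and 5 of 6 in colon (r above 0.1), and correlated best with their own number in 2 and 4 of 6, so the number is not taken as a pairing there. Leaving out 1 library gave 0 to 1 in colon. The block with number 2 left out in both lines called 0. Among the mucins the block changed no other call. In the other lists, by genotype, it gained A4gnt (0.0122), Galnt3, Mmp7, Chga, Chgb and Trpm5 in colon. In SI it lost Pla2g2a (adjusted p = 0.0503) and gained Neurod1, Dclk1, Trpm5 and Avil, so that Paneth calls went from 4 to 3, tuft from 2 to 5 and enteroendocrine from 1 to 2. Muc13 reversed around 0 for genotype: 0.03 in SI with the block and without number 2, -0.09 to 0.01 in SI and 0.00 to 0.11 in colon when 1 library was left out. Between tissues, plain library totals lost the call of Muc2 in 9S/T-A (-0.24). Counts over all genes moved beyond 1.5 times. In SI, 315 became 779 under DESeq2, 520 in 1 fit to all libraries and 2476 with the block and without number 2. In colon, 54 became 254 under DESeq2, 90 without a filter, 103 in 1 fit to all libraries, 89 with sex, and 211 with the block and without number 2. The block gave 477 in SI, and for the product of genotype and tissue 74 became 257 under DESeq2 and 342 with the block. Leaving out 1 library gave 188 to 550 in SI, 30 to 72 in colon and 50 to 112 for the product. Counting limits Muc5b, Muc20 and Muc1 in SI and Muc6 throughout.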
